A study of Mus musculus with 40 samples.

Results

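The glycolysis and hypoxia response genes described here are 36 genes that were chosen by name, with earlier results of these data known. All 36 were among the 14318 genes of the expression table. Of these, 17 encode enzymes of glycolysis or enzymes that set its pace (Hk1, Hk2, Gpi1, Pfkl, Pfkp, Pfkm, Pfkfb3, Pfkfb4, Aldoa, Aldoc, Tpi1, Gapdh, Pgk1, Pgam1, Eno1, Pkm and Ldha). The other 19 encode nutrient transporters, oxygen sensors and further genes that respond to low oxygen (Pdk1, Slc2a1, Slc2a3, Slc16a3, Car9, Bnip3, Ndrg1, Egln1, Egln3, Ankrd37, P4ha1, P4ha2, Adm, Higd1a, Ddit4, Kdm3a, Mxi1, Ak4 and Hif1a). They were measured by bulk RNA-sequencing in 39 primary tumors of the 4T1- and 66cl4-based intraductal mouse models for triple-negative breast cancer.

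Both models used luciferase-expressing mammary carcinoma cell lines, 4T1 or 66cl4, which were injected into the milk ducts of wild-type female BALB/c mice shortly after they had nursed a litter. Mice of each model were left untreated or received intraperitoneal injections of anti-PD-1 (200 µg per mouse), of chitin particles (1 mg per mouse) or of both, and primary tumors were taken at 5 w p.i. Anti-PD-1 is an antibody that blocks an inhibitory receptor of T-cells, and chitin is a polysaccharide that binds chitinase-like proteins. The number of tumors was 5 per group, and 4 for untreated 4T1 mice. Each model rests on a single cell line, and the labels give each tumor a number within its group.

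Cells that run short of oxygen keep the transcription factor subunit HIF-1α, encoded by Hif1a, because the prolyl hydroxylases that mark it for destruction (encoded by Egln1 and Egln3, among others) need oxygen to work. HIF-1α with its partner ARNT then binds short DNA sites with the core letters ACGTG or GCGTG near genes for glucose uptake, glycolysis, lactate export and pH control, so that energy can be made without oxygen. Carcinomas are known to use the same genes, both in poorly perfused areas and, in some cells, when oxygen is present. The level of Hif1a mRNA itself is a weak measure of this response, since HIF-1α is controlled largely as a protein.

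The core letters ACGTG were frequent next to the start sites of these genes. In promoter windows from 250 bases before to 50 bases after a start site (RefSeq, GRCm38.p6, which is the mm10 assembly), 34 of the 36 genes had an entry, and 25 of these 34 (73.5%) had ACGTG on either strand in at least 1 promoter. Of all genes of the expression table with a promoter entry, 28.5% had it. The share was 64.7% (11 of 17) for the glycolytic enzymes and 82.4% (14 of 17) for the other genes with an entry. For GCGTG, the corresponding share was 67.6% of the 34 genes against 53.6% of the genes of the expression table. The members were picked as glycolysis and hypoxia genes, so the share describes this choice, and a match of letters is not a measured binding site. The promoters of 6 genes named in the results below are shown as examples, 5′ to 3′ on the strand of the gene, with ACGTG or its reverse complement CACGT in capitals. Where both overlap they form CACGTG, a palindrome that other factors such as MYC also bind.
Egln3 (chr12:54203825-54204124, minus strand): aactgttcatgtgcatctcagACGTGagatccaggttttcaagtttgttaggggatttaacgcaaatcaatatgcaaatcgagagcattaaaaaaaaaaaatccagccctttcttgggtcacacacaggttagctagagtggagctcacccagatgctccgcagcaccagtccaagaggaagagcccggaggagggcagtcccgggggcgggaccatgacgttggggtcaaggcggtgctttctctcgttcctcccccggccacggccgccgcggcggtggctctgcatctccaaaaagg
Egln1 (chr8:124949205-124949504, minus strand): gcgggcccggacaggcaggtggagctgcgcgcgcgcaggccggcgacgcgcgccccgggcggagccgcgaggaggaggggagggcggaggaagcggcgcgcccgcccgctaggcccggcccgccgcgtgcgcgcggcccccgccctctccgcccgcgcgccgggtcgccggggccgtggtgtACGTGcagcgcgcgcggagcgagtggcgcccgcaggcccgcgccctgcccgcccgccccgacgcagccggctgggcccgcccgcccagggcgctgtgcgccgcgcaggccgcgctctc
Slc2a1 (chr4:119108495-119108794, plus strand): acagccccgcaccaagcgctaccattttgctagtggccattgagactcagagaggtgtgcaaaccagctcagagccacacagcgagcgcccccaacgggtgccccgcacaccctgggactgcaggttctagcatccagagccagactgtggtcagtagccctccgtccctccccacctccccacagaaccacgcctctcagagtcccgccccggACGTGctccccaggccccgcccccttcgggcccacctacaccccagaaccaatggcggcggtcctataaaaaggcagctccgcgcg
Ldha (chr7:46845554-46845853, plus strand): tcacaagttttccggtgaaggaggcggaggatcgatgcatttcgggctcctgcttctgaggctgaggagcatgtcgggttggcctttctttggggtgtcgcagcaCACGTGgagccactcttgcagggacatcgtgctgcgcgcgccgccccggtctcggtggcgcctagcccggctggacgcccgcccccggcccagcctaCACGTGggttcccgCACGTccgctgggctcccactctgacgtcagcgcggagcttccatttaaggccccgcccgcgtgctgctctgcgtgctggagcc
Aldoc (chr11:78322823-78323122, plus strand): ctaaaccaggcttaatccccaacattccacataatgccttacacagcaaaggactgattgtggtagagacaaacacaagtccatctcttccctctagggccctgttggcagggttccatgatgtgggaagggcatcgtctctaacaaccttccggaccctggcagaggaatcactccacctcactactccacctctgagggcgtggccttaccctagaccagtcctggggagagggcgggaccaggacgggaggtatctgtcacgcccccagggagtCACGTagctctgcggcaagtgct
Pfkp (chr13:6648722-6649021, minus strand): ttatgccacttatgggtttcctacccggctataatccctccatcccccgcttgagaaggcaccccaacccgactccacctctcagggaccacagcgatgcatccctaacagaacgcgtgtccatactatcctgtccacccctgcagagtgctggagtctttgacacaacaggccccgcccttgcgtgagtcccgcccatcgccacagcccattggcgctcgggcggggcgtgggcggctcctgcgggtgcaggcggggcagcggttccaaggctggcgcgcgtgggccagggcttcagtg
The oxygen sensors Egln3 and Egln1 and the glucose transporter Slc2a1 carry the letters once each in these windows. Ldha carries them at several places in the window shown, and its other listed promoter lacks them. Aldoc, expressed mainly in the 4T1 tumors, has 1 match just after the start shown, and its other listed promoter lacks the letters as well. Pfkp, the member with the largest difference toward 66cl4 tumors, has none in its window, although it holds GCGTG.

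Expression is given on the log2-like variance stabilized scale of the deposited values, on which the lowest listed value stands for a count of 0. A difference of 1 is close to a doubling for highly expressed genes and stands for more than a doubling for lowly expressed genes. Where levels of different genes are compared, normalized counts per kb of exon were used. Tumors held between 5105898 and 14800352 reads on the listed genes (median 6590274), and the smallest read number of any member in any tumor was 13, for Aldoc. The carcinoma epithelium genes were higher in the 4T1 tumors (10 of 10 called, median difference 3.67) and 9 of 10 macrophage genes were lower (median -0.97). The part of cell composition in the differences between the models was not tested. In these bulk samples, fewer cells of a type and less RNA per cell cannot be told apart.

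Genes were tested with limma over all 14318 genes, and a gene was called at a Benjamini-Hochberg adjusted p under 0.05. The p-values rest on the spread between tumors within groups, pooled over all groups of a fit, and the labels list these tumors as separate samples. For 91.5% of all genes this spread was larger in 4T1 (median SD 0.188) than in 66cl4 tumors (0.113). A fit of both models averages these unequal spreads. The paper injected cells into a pair of glands of each mouse. The labels do not say whether the tumors of a group came from different mice, and the tests treat them as independent.

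The first comparison asked how the 2 models differed in this program, as the mean over the 4 treatments. Of the 36 members, 21 were called (58.3%), 17 higher and 4 lower in 4T1, beside 78.8% of all genes. Of all genes, 40.8% were called higher and 38% lower in 4T1. Groups that did not overlap over all tumors were found for 3 members, Egln3, Aldoc and Ddit4, all higher in 4T1, beside 9.87% of all genes. Most of the rises were outside the glycolytic chain. Of the 19 other hypoxia genes, 12 rose and 1 fell, with a median difference of 0.39, and of the 17 glycolytic enzymes 5 rose and 3 fell, with a median of 0.07. The median over all genes was 0.01.

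**Figure D1:**
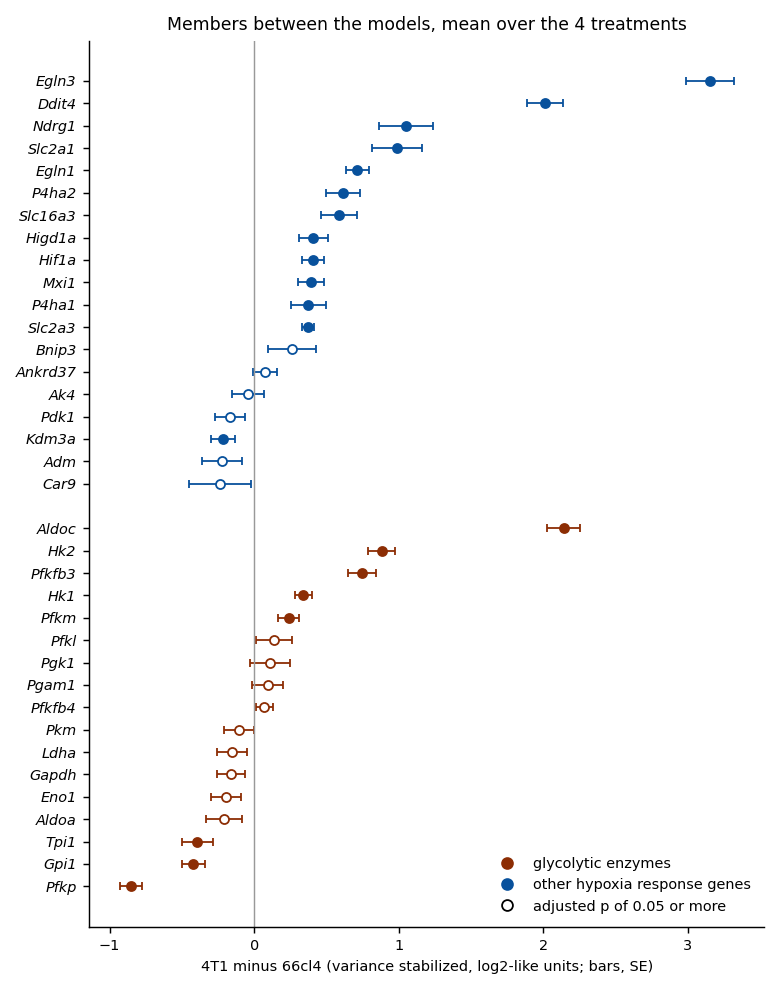
Difference between 4T1 and 66cl4 tumors for each of the 36 members, as the mean over the 4 treatments in log2-like units (x axis), with bars of 1 SE and filled points at an adjusted p under 0.05. Egln3, Aldoc and Ddit4 stand apart at 2.01 to 3.15, and Pfkp is lowest at -0.85.

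On the variance stabilized scale, the largest difference was that of an oxygen sensor. Egln3, a prolyl hydroxylase that HIF itself induces, ranged from 9.74 to 12.28 in the 19 4T1 tumors (median 11.37) and from 7.17 to 9.12 in the 20 66cl4 tumors (median 8.11). No 66cl4 tumor reached the lowest 4T1 tumor. The difference was 3.15 (SE 0.17, adjusted p = 1.41e-18 by limma), and mean normalized counts were 14.0-fold higher in 4T1.

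Egln1, the main prolyl hydroxylase of most cells, rose less, by 0.71 (SE 0.08, adjusted p = 9.08e-10 by limma), from a median of 9.47 in 66cl4 to 10.29 in 4T1, with overlapping ranges. The balance between both hydroxylases was therefore inverted. Egln3 made up 72.9% ± 10.1 (SD, n = 19) of the summed Egln3 and Egln1 counts per kb in 4T1 tumors and 26.0% ± 10.8 (SD, n = 20) in 66cl4 tumors. Hif1a itself rose by 0.41 (SE 0.08, adjusted p = 9.46e-06 by limma).

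In untreated tumors alone, Egln3 stood at 12.10, 11.39, 12.28 and 11.69 in 4T1 and at 9.12, 8.33, 8.09, 8.65 and 8.52 in 66cl4. The groups were far apart, and the difference was 3.32 (SE 0.35, adjusted p = 5.64e-10 by limma). Over all members, 15 were called between the untreated groups, 13 higher and 2 lower in 4T1, beside 55.8% of all genes. Groups without overlap were found for 9 members that were higher in 4T1, beside 22.3% of all genes, and for 2 that were lower (Gpi1 and Pfkp), beside 20.7%.

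Among the other genes outside glycolysis, Ddit4, which encodes an inhibitor of mTORC1 signaling, ranged from 10.03 to 12.16 in 4T1 (median 11.26) and from 8.61 to 9.89 in 66cl4 (median 9.20). The ranges did not overlap, and the difference was 2.01 (SE 0.12, adjusted p = 8.75e-17 by limma). Ndrg1, a stress-induced gene often used as a hypoxia marker, rose by 1.05 (SE 0.19, adjusted p = 6.34e-06 by limma), with a range in 4T1 from 10.57 to 13.12 that included most of the 66cl4 range from 10.30 to 11.61. The collagen prolyl hydroxylases P4ha1 and P4ha2 were called higher by 0.37 and 0.61, and Higd1a and Mxi1 by 0.41 and 0.39. The histone demethylase Kdm3a was the only member of this group called lower (-0.22, SE 0.08, adjusted p = 0.019 by limma). Car9, Adm, Pdk1, Ak4, Ankrd37 and Bnip3, of which several are standard hypoxia markers, had differences from -0.24 to 0.26 and were not called.

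The genes for transport of fuel and lactate were called higher in 4T1. Slc2a1, the main glucose transporter GLUT1, was at 12.06, 11.65, 11.001 and 11.36 in the untreated 4T1 tumors and at 10.98, 10.42, 10.30, 10.14 and 10.85 in the untreated 66cl4 tumors. All 4 untreated 4T1 tumors were above all 5 untreated 66cl4 tumors, by a small margin. Over the treatments the difference was 0.99 (SE 0.17, adjusted p = 4.13e-06 by limma), a 2.25-fold higher mean normalized count. Slc2a3, encoding GLUT3, rose by 0.37 (SE 0.04, adjusted p = 2.29e-10 by limma) and the lactate exporter Slc16a3 by 0.59 (SE 0.12, adjusted p = 5.48e-05 by limma). Slc2a1 remained the dominant glucose transporter of the pair in both models, with 98.1% of the summed counts per kb of Slc2a1 and Slc2a3 in each.

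The glycolytic enzymes with the largest differences, Aldoc, Hk2, Pfkp and Pfkfb3, all have a paralog among the members. At the first step, Hk2, the inducible hexokinase, was at 10.35, 10.48, 10.47 and 10.60 in untreated 4T1 and at 9.79, 9.61, 9.66, 9.52 and 9.56 in untreated 66cl4 tumors. These groups did not overlap, and over the treatments Hk2 rose by 0.88 (SE 0.09, adjusted p = 1.63e-10 by limma), while the widely expressed Hk1 rose by 0.34 (SE 0.06, adjusted p = 4.73e-06 by limma). Hk2 made up 52.0% ± 7.11 (SD, n = 19) of both hexokinases per kb in 4T1 and 41.0% ± 2.94 (SD, n = 20) in 66cl4.

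At the phosphofructokinase step, which commits sugar to glycolysis, the platelet-type gene Pfkp went the other way. It was at 10.15, 10.13, 10.20 and 10.61 in untreated 4T1 and at 11.40, 11.11, 11.05, 10.89 and 11.18 in untreated 66cl4 tumors. Over the treatments it fell by 0.85 (SE 0.08, adjusted p = 2.23e-12 by limma), with the highest 4T1 tumor (10.68) just above the lowest 66cl4 tumor (10.67). Per kb, Pfkp made up 12.1% ± 2.34 (SD, n = 19) of the 3 phosphofructokinase genes in 4T1 and 22.8% ± 1.44 (SD, n = 20) in 66cl4, and the liver-type Pfkl was the largest in both, with 70.2% and 63.8%. The muscle-type Pfkm rose by 0.24 (SE 0.07, adjusted p = 0.00253 by limma), and genes of skeletal muscle, which also expresses it, were higher in 4T1 as well (12 of 14 called). The part of muscle tissue in the Pfkm value was not tested. Pfkfb3, whose product makes the activator of phosphofructokinase, rose by 0.74 (SE 0.10, adjusted p = 1.19e-08 by limma), and its paralog Pfkfb4 (0.07) was not called.

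At the aldolase step, Aldoc was at 9.92, 9.33, 8.83 and 8.86 in untreated 4T1 tumors and at 6.84, 6.93, 6.75, 6.77 and 7.20 in untreated 66cl4 tumors, where the values stand for 15.8 to 44.0 normalized counts. The ranges did not overlap in these groups nor over all tumors, and the difference over the treatments was 2.14 (SE 0.12, adjusted p = 3.41e-18 by limma), a 15.4-fold higher mean normalized count. Aldoc still supplied only 5.71% ± 2.75 (SD, n = 19) of the summed aldolase counts per kb in 4T1 and 0.339% ± 0.169 (SD, n = 20) in 66cl4. The bulk was Aldoa in both models.

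Of the steps with a single gene among the members, Gpi1 fell by 0.42 (SE 0.08, adjusted p = 8.72e-06 by limma) and Tpi1 by 0.40 (SE 0.11, adjusted p = 0.00125 by limma). Gapdh, Pgk1, Pgam1, Eno1, Pkm and Ldha, which include the most abundant members, had differences from -0.19 to 0.11 and were not called. Aldoa, Eno1, Gapdh, Ldha, Pgk1, Pgam1, Pkm and Tpi1 have near-identical copies elsewhere in the genome, among which counting could split reads, so their levels are uncertain. One tumor, number 2 of the 4T1 anti-PD-1 group, decided part of this count. Without it 26 members were called, again 17 higher but 9 lower, beside 11394 genes in all.

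**Figure D2:**
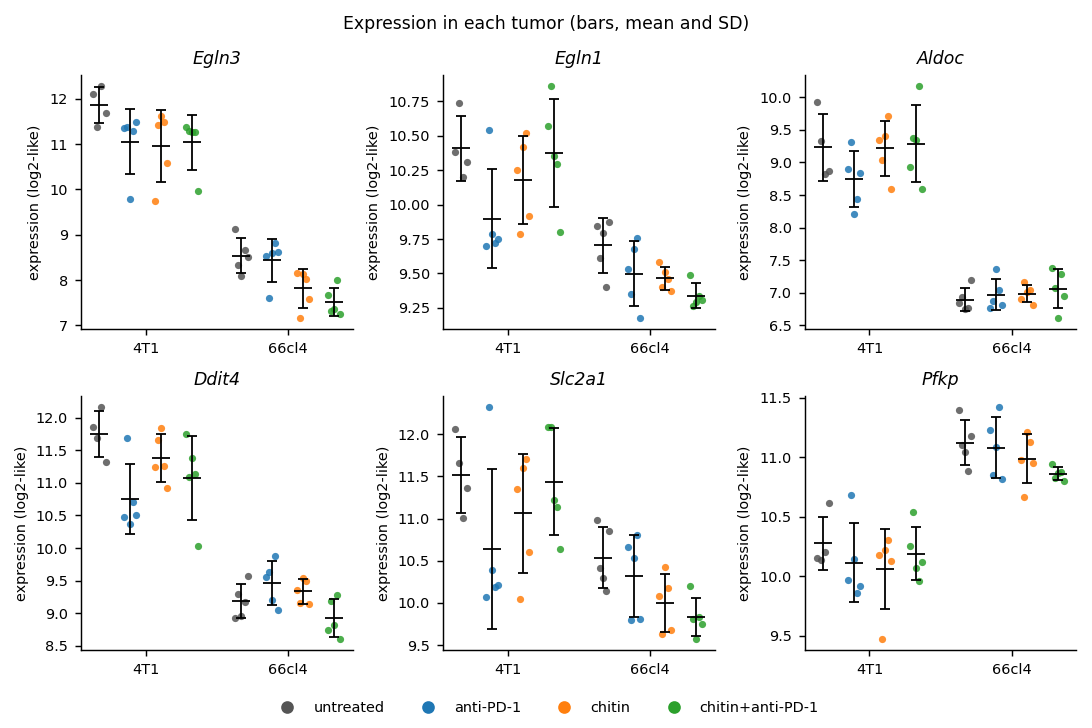
Expression of Egln3, Egln1, Aldoc, Ddit4, Slc2a1 and Pfkp in every tumor (y axis, log2-like units, each panel with its own range that does not start at 0), with 1 column of points for each treatment group of each model and bars for the mean and SD. Egln3, Aldoc and Ddit4 separate the models in every tumor, and 1 anti-PD-1 tumor of the 4T1 model is far above the other 4 for Slc2a1.

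Genes of the same pathways that are not members are read beside the same background, with 40.8% of all genes called higher and 38% lower in 4T1. Of 23 further glycolysis genes, 9 rose and 7 fell, with the muscle-type enolase Eno3 lower in 4T1 (-1.25) and Ldhb and the neuronal enolase Eno2 higher by 0.87 and 0.77. Of 29 further hypoxia targets, 14 rose and 7 fell (median 0.21), and the rises included those of Lox (2.88), which encodes a collagen cross-linking enzyme, and of its relative Loxl2 (2.57). The 10 fibroblast genes had a median difference of 1.19 between the models (8 higher in 4T1, with 6 called higher and 2 called lower). Their part in these rises was not tested. Of 12 genes of the sensing and signaling machinery, 8 fell and 3 rose. Hif1an, encoding a hydroxylase that inhibits HIF-1α, was at 8.77 to 9.25 in 4T1 and at 9.83 to 10.19 in 66cl4 tumors. Arnt and Arnt2, encoding partners of HIF-1α, were lower in 4T1, with differences of -0.78 and -1.33, and the ranges did not overlap for any of the 3, where 7.98% of all genes had no overlap in this direction.

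The treatment comparisons asked whether anti-PD-1, chitin or both moved the program within a model. In none of the 10 treatment comparisons did limma call any member or any other gene (0% of all genes), and limma-voom on recovered reads called 0 members as well. The values below therefore describe directions, with unadjusted p-values of limma where given. They rest on comparisons that share the untreated tumors of a model. The members also varied together between tumors, as given further below, so a count of members is not a count of separate results. Some counts with a tumor left out have no share of all genes beside them. Those only describe how far single tumors moved the count.

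In the 4T1 model, the lowest median difference from untreated tumors was that of anti-PD-1 alone. Relative to untreated tumors, 33 of 36 members had a negative difference, with a median of -0.49 (-0.36 for the glycolytic enzymes and -0.59 for the other hypoxia genes) where 50.2% of all genes were negative. At an unadjusted p under 0.05, 9 members were lower (25%), beside 4.37% of all genes, and 0 were higher. Ankrd37, which encodes an ankyrin repeat protein induced by hypoxia, was at 7.94, 7.97, 7.88 and 7.93 in untreated tumors and at 7.18, 7.70, 7.14, 6.98 and 7.4 after anti-PD-1. It was the only member without overlap between the groups, where 1.11% of all genes had none in this direction, and its difference was -0.65 (SE 0.17, unadjusted p = 0.000941, adjusted p = 0.517 by limma).

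Ddit4 was at 11.85, 11.68, 12.16 and 11.32 in untreated tumors and at 10.48, 11.69, 10.37, 10.71 and 10.51 after anti-PD-1. The difference was -1.0 (SE 0.31, unadjusted p = 0.00458, adjusted p = 0.517 by limma). In the anti-PD-1 group, tumor 2 alone was within the untreated range. The same tumor was high across the program. Slc2a1 was at 12.32 in it and between 10.07 and 10.39 in the other 4, and Ndrg1 at 13.12 and between 10.57 and 10.78. The mean over the 19 other hypoxia genes was 10.11 in this tumor, between 8.92 and 9.15 in the other 4 and between 9.73 and 9.97 in the untreated tumors.

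Results for this comparison therefore depended on which tumors were included. Without tumor 2 of the anti-PD-1 group, 2 members were called lower, Kdm3a (-0.74, adjusted p = 0.0363 by limma) and Ankrd37 (-0.76, adjusted p = 0.0477 by limma), with 80 genes called in all. There, 26 members had an unadjusted p under 0.05 in the lower direction, beside 8.85% of all genes. Without untreated tumor 1 or 2 or anti-PD-1 tumor 1 or 4 the latter number was 4, and without anti-PD-1 tumor 3 or 5 it was 5. The median difference stayed negative with any tumor left out, between -0.66 and -0.36. With array weights, which give tumors far from their group less weight, 12 members were called, among 960 genes.

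Other tissue moved with these values. The 10 adipocyte genes had a median difference of 1.74 and all were higher after anti-PD-1, with summed normalized counts of 62.9 to 23839.9 in the anti-PD-1 tumors and 214.2 to 1981.6 in the untreated tumors. The lowest of these sums was in anti-PD-1 tumor 2, and the other 4 anti-PD-1 tumors had 5164.7 or more. Adipoq, Lep and Pck1 of this list were at 0 in at least 1 anti-PD-1 tumor, and Adipoq, Lep and Retn in at least 1 untreated tumor. The 4 genes of lactating epithelium had a median difference of 1.97 and reached 628.3 to 2989.9 summed normalized counts in those 4 tumors, beside 4.0 in tumor 2 and 4.7 to 228.6 in untreated tumors. The 10 macrophage genes had a median difference of 0.40 and sums of 13759.1 in tumor 2, 30003.5 to 35460.0 in the other 4 and 16009.6 to 25821.6 in untreated tumors. The part of these tissues in the lower values of the members was not tested.

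**Figure D3:**
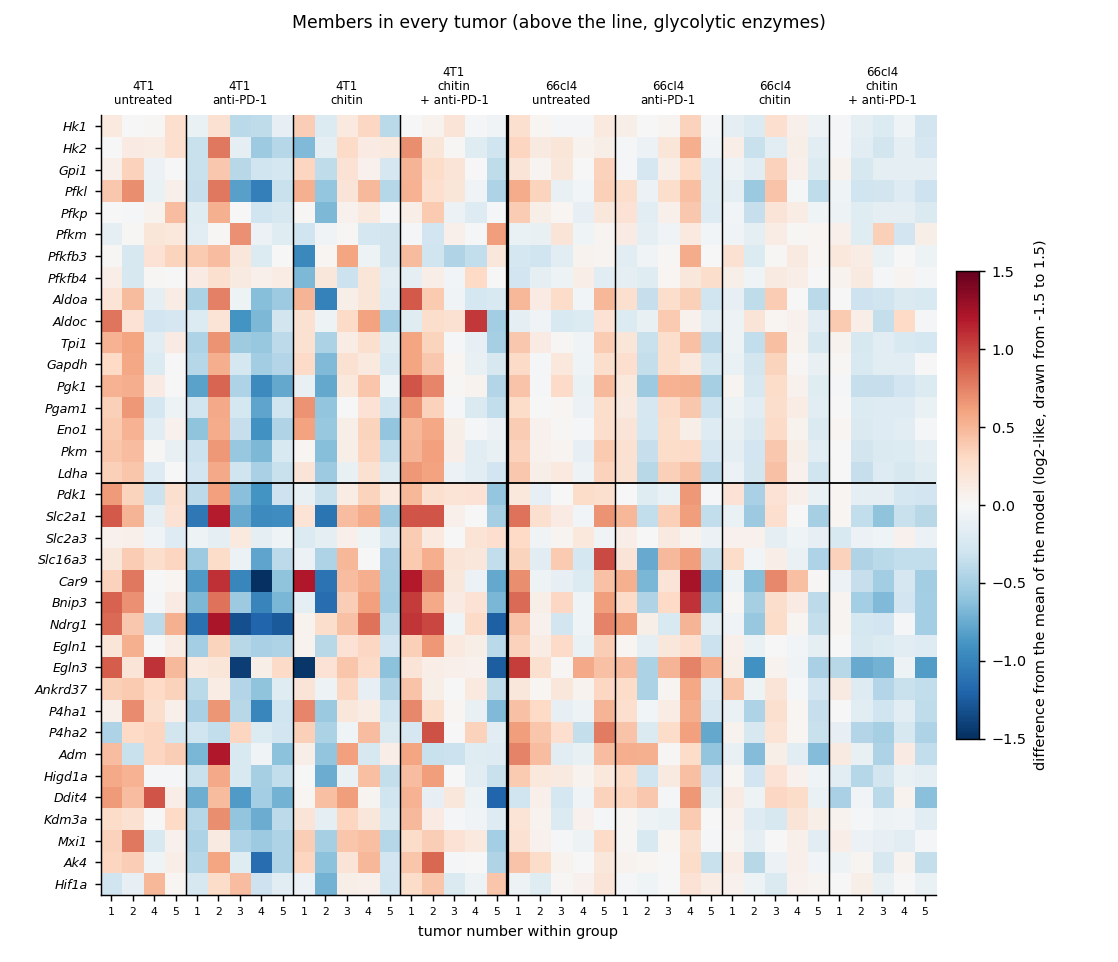
Difference of each member (rows, glycolytic enzymes above the line) from the mean of its model in each of the 39 tumors (columns, by group and tumor number), in log2-like units with the color range limited to 1.5 in both directions. Most rows change together within a tumor, and 4 of the 5 anti-PD-1 tumors of the 4T1 model are mostly blue while tumor 2 is mostly red.

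After chitin alone in 4T1 tumors, negative differences were found for 35 of 36 members, with a median of -0.22, where 51% of all genes were negative, and 2 members had an unadjusted p under 0.05, both lower, beside 1.38% of all genes. These were Ankrd37 (-0.38, SE 0.17, unadjusted p = 0.035 by limma) and Egln3 (-0.90, SE 0.41, unadjusted p = 0.0398 by limma). Egln3 was at 9.74, 11.41, 11.62, 11.48 and 10.58 after chitin, so that 2 of the 5 tumors were below the untreated range and 3 within it. Without chitin tumor 2 the median over the members was -0.10. The 2 members at an unadjusted p under 0.05 became 0 without untreated tumor 1 or chitin tumor 5, and 1 without untreated tumor 2, 4 or 5 or chitin tumor 1 or 2. The adipocyte genes had a median difference of 0.84 (10 of 10 higher) and the macrophage genes of -0.43 (1 of 10 higher). That of lactating epithelium was 0.94 (4 of 4 higher), of carcinoma epithelium 0.43 (9 of 10 higher) and of skeletal muscle -0.46 (0 of 14 higher). The part of these tissues was not tested.

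With both agents 28 of 36 differences were negative, beside 50.3% of all genes, and the median was -0.08. The members with the smallest p were Slc2a3, higher by 0.22 (SE 0.09, unadjusted p = 0.0275 by limma), and Ddit4 (-0.67, SE 0.31, unadjusted p = 0.0425 by limma). Without tumor 5 of the combination group, only 13 of 36 differences were negative and the median was 0.06. Without untreated tumor 1 or 2, 20 and 18 were negative and both medians were -0.02. The median was -0.04 and -0.02 without combination tumor 3 and 4, -0.20 and -0.15 without combination tumor 1 and 2, and -0.12 without untreated tumor 4. The neutrophil genes had a median difference of 0.80, with 6 of 11 at an unadjusted p under 0.05. That of the adipocyte genes was 0.71 (10 of 10 higher), of lactating epithelium 0.82 (4 of 4 higher) and of macrophage genes -0.37 (2 of 10 higher). The part of these cell types was not tested.

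Compared with anti-PD-1 alone, the combination gave 4 negative differences of 36, beside 47.5% of all genes, with a median of 0.35, and 5 members were higher at an unadjusted p under 0.05, beside 3.54% of all genes. Slc2a3 (0.25, SE 0.09, unadjusted p = 0.00919 by limma) and the lactate exporter Slc16a3 (0.49, SE 0.21, unadjusted p = 0.0275 by limma) led. Slc16a3 was at 8.63, 9.45, 9.09, 8.39 and 8.79 after anti-PD-1 and at 9.57, 9.72, 9.37, 9.35 and 8.81 after both, with overlap at the ends. Without anti-PD-1 tumor 2 the number was 24, beside 9.09% of all genes, and Kdm3a was called (0.61, adjusted p = 0.0385 by limma). The number of members higher at an unadjusted p under 0.05 was 16 without combination tumor 5, and 1 or 2 without combination tumor 1 or 2 or any other anti-PD-1 tumor. With array weights, 14 members were called, among 2127 genes. In the same comparison, the macrophage genes had a median difference of -0.74, with 6 of 10 at an unadjusted p under 0.05, the adipocyte genes of -0.96 (0 of 10 higher), the genes of lactating epithelium of -0.90 (0 of 4 higher) and the neutrophil genes of 0.45 (9 of 11 higher). Their part in the higher values of the members was not tested. Over both chitin-containing groups against both others in 4T1, 10 of 36 differences were negative, beside 48.3% of all genes, the median was 0.06 and 0 members had an unadjusted p under 0.05, where 7.28% of all genes did. Egln3 (-0.46, SE 0.28, unadjusted p = 0.117 by limma) and Pfkfb3 (-0.24, SE 0.17, unadjusted p = 0.172 by limma) had the smallest p. Without anti-PD-1 tumor 2, 5 differences were negative and the median was 0.16, and without anti-PD-1 tumor 4 or combination tumor 1, 19 and 17 were negative with medians of about 0. Without chitin tumor 2 the median was 0.13, and without combination tumor 5 it was 0.12. The macrophage genes had a median difference of -0.58, with 7 of 10 at an unadjusted p under 0.05, and their part was not tested.

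In the 66cl4 model the lower values were found in the chitin-containing groups. Anti-PD-1 alone gave 28 negative differences of 36, beside 48.9% of all genes, with a median of -0.10 and 1 member at an unadjusted p under 0.05 in the lower direction, beside 2.56% of all genes. This was Egln1 (-0.20, SE 0.10, unadjusted p = 0.0494 by limma), followed by Pfkfb3 (0.20, SE 0.11, unadjusted p = 0.088 by limma). The number was 4 without anti-PD-1 tumor 4, 2 without untreated tumor 4, and 0 without untreated tumor 1, 3 or 5 or anti-PD-1 tumor 1, 2 or 5. The median was -0.03 and -0.05 without untreated tumor 1 and 5, and -0.02 without anti-PD-1 tumor 2 or 5.

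After chitin alone, 32 of 36 differences were negative, beside 50.1% of all genes, with a median of -0.17, and 9 members were lower at an unadjusted p under 0.05 (25%), beside 5.28% of all genes. The number was 2, 4, 3 and 3 without untreated tumor 1, untreated tumor 5, chitin tumor 2 and chitin tumor 5. Egln3 was at 8.16, 7.17, 8.13, 8.02 and 7.59 after chitin, beside 8.09 to 9.12 without treatment (-0.73, SE 0.23, unadjusted p = 0.00496, adjusted p = 0.236 by limma). Adm, which encodes the vasodilator adrenomedullin, had the next smallest p (-0.58, SE 0.21, unadjusted p = 0.0134 by limma). The macrophage genes had a median difference of 0.34, with 6 of 10 at an unadjusted p under 0.05, and the skeletal muscle genes of -0.47 (0 of 14 higher), and their part was not tested.

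After chitin + anti-PD-1, 32 of 36 differences were again negative, beside 49% of all genes, with a median of -0.32 (-0.26 for the glycolytic enzymes and -0.39 for the other hypoxia genes). At an unadjusted p under 0.05, 21 members were lower (58.3%), beside 4.82% of all genes, and 0 were higher. Without untreated tumor 1 or 5, the numbers were 12 and 13. Egln3 was at 7.66, 7.33, 7.37, 8.0 and 7.24 in this group, below each untreated tumor (-1.02, SE 0.23, unadjusted p = 0.000251, adjusted p = 0.197 by limma). Egln1 was at 9.49, 9.26, 9.29, 9.34 and 9.31, beside 9.85, 9.61, 9.79, 9.40 and 9.87 in untreated tumors (-0.37, SE 0.10, unadjusted p = 0.00128, adjusted p = 0.278 by limma). One combination tumor was above the lowest untreated tumor. Groups without overlap were found for Egln3, Hk1, Hk2 and Higd1a, all lower, beside 1.03% of all genes. In this comparison the macrophage genes had a median difference of 0.36, with 7 of 10 at an unadjusted p under 0.05, the skeletal muscle genes of 0.51 (14 of 14 higher) and the adipocyte genes of 0.43 (10 of 10 higher). Their part in the lower values of the members was not tested.

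Relative to anti-PD-1 alone, the combination in 66cl4 tumors gave 33 negative differences of 36, beside 47.9% of all genes, with a median of -0.23, and 8 members were lower at an unadjusted p under 0.05, beside 4.48% of all genes. Without anti-PD-1 tumor 1, 2, 3, 4 or 5, the number was 4, 18, 5, 2 and 19, and without combination tumor 2, 3 or 5 it was 5, 4 and 5. Hk1 alone had no overlap between the groups, in the lower direction, beside 1.13% of all genes. The skeletal muscle genes had a median difference of 0.86 (14 of 14 higher), whose part was not tested. Egln3 (-0.92, SE 0.23, unadjusted p = 0.000699, adjusted p = 0.406 by limma) and Ddit4 (-0.53, SE 0.16, unadjusted p = 0.0029, adjusted p = 0.449 by limma) had the smallest p.

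Over both chitin-containing groups of the 66cl4 model against both others, 32 of 36 differences were negative, beside 48.5% of all genes, the median was -0.19, with 16 members lower at an unadjusted p under 0.05 (44.4%), beside 7.84% of all genes. Egln3 came closest to a call, with -0.82 (SE 0.16, unadjusted p = 5.9e-05, adjusted p = 0.0769 by limma). It was called at equal read depth, where reads of all tumors were thinned to 5105898 (-0.74, adjusted p = 0.0387 by limma), and without untreated tumor 3, anti-PD-1 tumor 2 or chitin tumor 3 (adjusted p = 0.0203, 0.021 and 0.0466 by limma). Without anti-PD-1 tumor 2, 27 members had an unadjusted p under 0.05 in the lower direction. The chitin-containing groups had been sequenced more deeply, with medians of 10250227 and 8985408 reads beside 6064018 and 6166518, and at equal read depth the median over the members was -0.18. The macrophage genes had a median difference of 0.22, with 5 of 10 at an unadjusted p under 0.05, and their summed normalized counts were 40486.2 to 51276.9 in the chitin-containing tumors and 27748.9 to 48603.1 in the others. Their part in the lower values of the members was not tested.

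**Figure D4:**
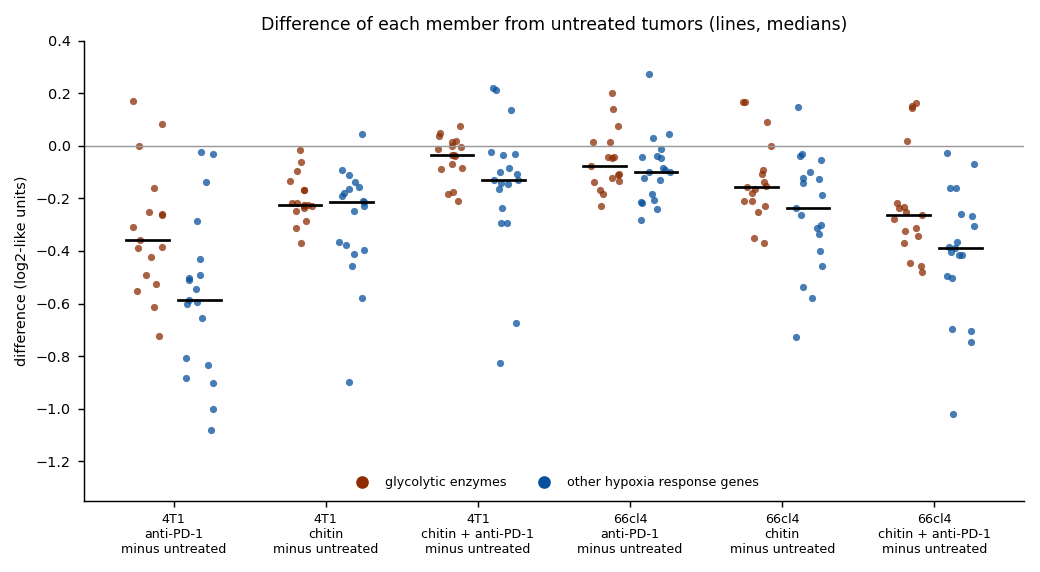
Difference of each member between a treated group and the untreated tumors of its model (y axis, log2-like units), for the 17 glycolytic enzymes and the 19 other hypoxia genes in each of 6 comparisons, with lines at the medians. The medians are below 0 in each column, lowest for anti-PD-1 in the 4T1 model and for chitin + anti-PD-1 in the 66cl4 model, and no single difference passed an adjusted p of 0.05.

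The difference between the models in the effect of chitin, over both chitin-containing groups against both others, was tested directly. It was negative for 3 of 36 members, beside 48.1% of all genes, where a positive value means a less negative or more positive chitin difference in 4T1, and the median was 0.25, and 0 members were called, beside 0.0978% of all genes. At an unadjusted p under 0.05, 2 members were higher, beside 5.52% of all genes. These were P4ha2 (0.61, SE 0.24, unadjusted p = 0.0157, adjusted p = 0.255 by limma) and Slc2a3 (0.20, SE 0.08, unadjusted p = 0.0162, adjusted p = 0.258 by limma). Without 4T1 anti-PD-1 tumor 2 the number at this unadjusted threshold was 19, and the share of all genes there is not given. At an adjusted p under 0.05, Ndrg1 alone of the members was called without that tumor (1.01, adjusted p = 0.0454 by limma), among 677 genes. In the 4T1 model, the number at an unadjusted p under 0.05 was 4 without untreated tumor 1 or 2, 7 without chitin tumor 2 or 5 and 8 without combination tumor 5. In the 66cl4 model, it was 5 without untreated tumor 4, 4 and 5 without anti-PD-1 tumor 2 and 5, 6 without chitin tumor 3 and 5 without combination tumor 1. In the same test the macrophage genes had a median of -0.82 (0 of 10 higher, 7 of 10 at an unadjusted p under 0.05), and their part in the values of the members was not tested.

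Single tumors differed from each other in this program more than in most genes. The SD within groups, pooled over the 8 groups, had a median of 0.343 over the members and of 0.156 over all genes, and 0.331 and 0.389 for the glycolytic enzymes and the other hypoxia genes. Car9, a membrane carbonic anhydrase that regulates pH, had the largest spread (0.699), followed by Ndrg1 (0.618), Slc2a1 (0.567), the mitophagy receptor Bnip3 (0.549) and Egln3 (0.543). Between 1.01% and 2.15% of all genes had a larger SD than these 5. Slc2a3 had the smallest (0.121). The spread was larger in 4T1 than in 66cl4 tumors for 34 of 36 members, as for 91.5% of all genes.

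Car9 shows the range. In the 4T1 anti-PD-1 group it was at 8.70, 10.64, 8.57, 7.83 and 8.94, and in the 4T1 chitin group at 10.75, 8.44, 10.02, 10.09 and 9.05. In the 66cl4 model it was between 9.28 and 9.71 in the combination group and between 9.04 and 11.03 in the anti-PD-1 group. The treatment groups of a model overlapped.

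The members varied together. Over the 39 tumors, after the mean of each group had been subtracted, the median correlation (Pearson's r) between pairs was 0.604 among glycolytic enzymes, 0.555 among other hypoxia genes and 0.587 between both, beside -0.001 between members and other genes. The mean of the glycolytic enzymes followed the mean of the other hypoxia genes with r = 0.952 (Spearman's rho 0.938), with r = 0.968 in the 19 4T1 and 0.912 in the 20 66cl4 tumors. These values are descriptions. All points share the sequencing and normalization of the series, and the mean of the other hypoxia genes had r = 0.015 with the number of reads. The mean of the macrophage genes ran opposite to the mean of the other hypoxia genes in 4T1 (r = -0.773), and less so in 66cl4 tumors (r = -0.228).

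**Figure D5:**
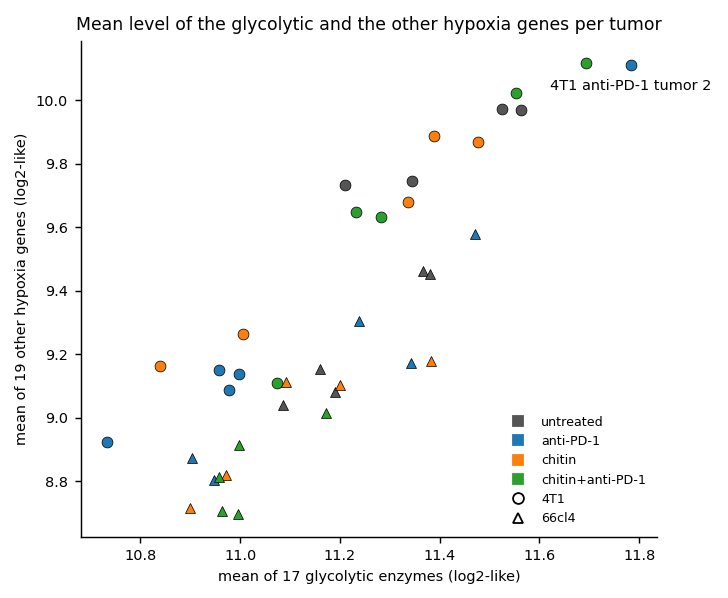
Mean expression of the 17 glycolytic enzymes (x axis) and of the 19 other hypoxia genes (y axis) in each of the 39 tumors, in log2-like units, with the treatment by color and the model by symbol. Both means rise together within each model, at higher values of the other hypoxia genes in 4T1, and tumor 2 of the 4T1 anti-PD-1 group has the highest glycolytic mean (11.78).

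Not every member took part. The median correlation with the other members was highest for Slc2a1 (0.820), Bnip3 (0.806), Pfkl (0.804) and Tpi1 (0.803), and lowest for Pfkm (-0.161), Pfkfb4 (-0.086), Slc2a3 (0.123) and Pfkfb3 (0.170). Hif1a (0.298) and Egln3 (0.299) were also low. Egln3, the member with the largest difference between the models on the variance stabilized scale, thus followed the shared variation between tumors less than its paralog Egln1 (0.779) did. The closest pair was Ldha and Tpi1 (0.963).

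Outside the members, the genes whose deviations were most like the mean of the 19 other hypoxia genes over the 39 tumors were Map2k1 (r = 0.925), which encodes the kinase MEK1, Pgm1 (0.924) and Gys1 (0.881), encoding enzymes of glycogen metabolism, Arhgef39 (0.889), whose gene lies next to Car9 on chromosome 4, and Ero1a (0.879), encoding an oxidase of protein folding. The mean of the 29 further hypoxia targets followed the same mean with r = 0.728 and that of the 23 further glycolysis genes with r = -0.245.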

How the data were processed

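Primary tumors of the 4T1 and 66cl4 models were measured by bulk RNA-sequencing, with 39 tumors in 8 groups assigned from the labels. Per the methods of the study, the authors mapped reads of stranded TruSeq libraries with HISAT2 (mm10), summarized them over genes, removed genes with few reads and deposited log2-like values from the variance stabilizing transformation of DESeq2. The reads behind these values were recovered by inverting the transformation (100% whole within 0.001 reads) and gave depths, normalized counts, counts per kb of exon and the limma-voom alternative.

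Differences were tested on the deposited log2 scale with limma 3.58.1 in R 4.3.3 (empirical Bayes with a mean-variance trend), with Benjamini-Hochberg adjustment over all 14318 genes and a threshold of 0.05. Treatments were compared within a model, and the models in a fit of all 8 groups. The test was tried on simulated data. Promoter letters were searched on both strands of RefSeq windows (GRCm38.p6). Other normalizations, a filter on low values, array weights, equal depth, a replicate block and leaving out each tumor were alternatives.

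All members could be named. Full values were given for the largest called differences between the models, for called members of each treatment comparison or else the 2 with the smallest p, for paralogs and for the 5 members with the largest spread. Members and lists were chosen with earlier results of these data known. Untreated 4T1 tumor 3 was not analysed here, and the values of 1 gene outside the members that this rule would name are not reported here. The marker lists with their genes were fixed by hand. Median differences of 4T1 relative to 66cl4 tumors over the treatments that the results above leave out are as follows. They were 0.76 (neutrophils), 0.50 (endothelium), 0.83 (skeletal muscle), -0.08 (erythroid cells), 0.91 (adipocytes), 0.85 (lactating epithelium) and -0.45 (proliferation). The labels do not say whether tumor numbers link tumors of different groups, and the main tests used no pairing. Over 57 pairs with the same number, deviations from group means had a median correlation of 0.0139 (-0.392 to 0.539). Over 228 pairs with other numbers it was -0.00297 (-0.568 to 0.681).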

Additional observations from a re-analysis of the deposited data

Results flagged for a closer look

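A tumor was picked out where its distance to the nearest other tumor of its group took up most of the range of the group, which chance gives in about 1 in 20 groups. Of 288 tests of a member in a group, 28 did so. Of these, 13 were in tumor 2 of the 4T1 anti-PD-1 group, which was higher than the other 4 tumors of the group. Its value was 12.45 for Gpi1, 12.70 for Tpi1, 11.49 for Gapdh, 13.16 for Pgk1 and 13.31 for Ldha among the glycolytic enzymes. It was 12.32 for Slc2a1, 10.45 for Bnip3, 13.12 for Ndrg1, 10.54 for Egln1, 9.30 for Higd1a, 11.69 for Ddit4, 10.02 for Kdm3a and 9.48 for Mxi1. The other 4 tumors were between 10.07 and 10.39 for Slc2a1 and between 11.34 and 11.83 for Pgk1, as examples.

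In tumor 3 of the same group, Pfkm (9.58), Slc2a3 (7.66) and P4ha2 (8.95) were high and Egln3 (9.79) was low. This tumor also had the highest summed normalized counts of skeletal muscle genes of its group (13595.2, beside 489.8 to 2816.8 in the other 4), and the part of muscle in these values was not tested. In the 4T1 chitin + anti-PD-1 group, Pdk1 (8.33), Egln3 (9.96) and Mxi1 (8.83) were low in tumor 5, and Adm (8.89) was high in tumor 1. Pfkp was high in untreated 4T1 tumor 5 (10.61) and low in 4T1 chitin tumor 2 (9.47).

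In the 66cl4 model, Pfkfb3 (9.30), Pdk1 (9.74) and Kdm3a (9.94) were high in anti-PD-1 tumor 4, Egln3 (7.61) was low in anti-PD-1 tumor 2, and Slc16a3 (8.94) was high in chitin + anti-PD-1 tumor 1.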

How the results depend on the processing

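Both model comparisons kept their direction and stayed within 1.5 times the main number of called members under every alternative run. For the mean over the treatments the number was 20 to 25 across other settings and 21 to 26 with 1 tumor left out, and for untreated tumors 13 to 18 and 13 to 17. Of the treatment results, those that changed from 0 called members are as follows. With array weights, 12 members were called for anti-PD-1 against untreated and 14 for chitin + anti-PD-1 against anti-PD-1 in the 4T1 model, 1 for the chitin-containing groups of the 66cl4 model and 2 for the difference in the chitin effect. The totals over all genes called with array weights are given above for the 4T1 comparisons. For the others no share of all genes is given, so those counts show nothing particular to the members. At equal read depth, 1 (Egln3) was called for the chitin-containing groups of the 66cl4 model. With 1 tumor left out, the numbers ranged from 0 to 2 for anti-PD-1 against untreated and from 0 to 1 for chitin + anti-PD-1 against anti-PD-1 in 4T1, from 0 to 1 for the chitin-containing groups in 66cl4 and from 0 to 1 for the difference in the chitin effect. Why these settings differ was not tested. With both models in 1 fit, no member was called in a treatment comparison, but the members lower at an unadjusted p under 0.05 numbered 19 in place of 9 for anti-PD-1 against untreated in 4T1. In 66cl4 they numbered 2 in place of 9 for chitin, 9 in place of 21 for both agents and 8 in place of 16 for the chitin-containing groups. No called difference changed its sign in the alternatives run. Among medians over the members, which were not tested, that of chitin + anti-PD-1 against untreated in 4T1 went from -0.08 to 0.06 without combination tumor 5, and that of the 4T1 chitin-containing groups from 0.06 to about 0 without anti-PD-1 tumor 4.

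The replicate block, with the tumor number as a term, called 1 member (Egln3) for chitin + anti-PD-1 against untreated and 1 (Egln3) for the chitin-containing groups of the 66cl4 model, and no other member in a treatment comparison. Of the 57 pairs of tumors with the same number, 22 had a correlation of deviations above 0.1, beside 63 of 228 pairs with other numbers. These values cannot decide whether the number links tumors of different groups. At 5105898 to 14800352 reads per tumor, depth was limiting mainly for Aldoc in 66cl4 tumors, with as few as 13 reads.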
